A study of Mus musculus with 60 samples.

Results

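The first 2 weeks of culture with IL6 were followed here by comparing day 14 with day 3, in the 6 libraries of the first culture (P0) among 60 samples of the series and 33 of the cell table. The members were 11336 of 19355 gene symbols, those that reached 1 FPKM in 3 or more of the 6 libraries. This filter used the levels and not the difference between the days, but the members and the gene lists below were chosen with earlier results of these data known. FPKM counts fragments per kilobase of transcript and scales them by the number mapped, so that values can be compared between genes.

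Both groups were wild-type hepatocytes of C57BL/6 mice (C57BL/6J in the study's methods), taken per the study's methods at an age of 8 to 10 weeks, isolated by perfusion and plated on gelatin. Both were kept in the same medium, with 30 ng/ml IL6, 20 ng/ml EGF, 20 ng/ml HGF, insulin, transferrin, selenium and dexamethasone. The groups IL6-iHPCs-D3 (P0) and IL6-iHPCs-D14 (P0) differed in their labels only by the time in this medium, 3 libraries each, and neither had been passaged. There was no culture without IL6 at these days in the table, so time in culture and time in IL6 cannot be told apart. The study's legend calls 3 samples of a group technical repeats, so the p-values below measure the spread between these libraries, which may be technical, and not that between mice. Messenger RNA was purified with polyT and sequenced in pairs.

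IL6 is the cytokine that drives the acute phase response of the liver. It binds its receptor Il6ra, signals through the shared subunit Il6st and the Janus kinases, and activates the transcription factor STAT3, which induces both acute phase proteins and its own feedback inhibitor Socs3. Hepatocytes put into culture are known to lose part of their adult gene expression, and under growth factors some take on features of the biliary epithelium and of the fetal liver. An IL6-iHPC is the study's name for a proliferating, progenitor-like cell made in this way.

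The libraries held 53.4 M to 55.5 M reads on genes at day 14 and 56.9 M to 67.8 M at day 3 (M, 1e6). The 10 most abundant genes took 13.7 ± 0.327% of reads at day 14 and 9.54 ± 0.309% at day 3 (SD, n = 3), and in FPKM a few abundant transcripts lower the values of all others. Library 2 of day 3 stood apart: across genes tested, its Pearson's r with the other day 3 libraries was as low as 0.990, while the 3 day 14 libraries had r of 0.997 with each other and r between days was 0.902 to 0.911 (genes are not independent replicates). Without it, 1188 of the 1250 calls given below remained, with 639 genes higher and 644 lower, and the largest shift in the median of a list, over the 47 lists with at least 5 members tested, was 0.174 on the log2 scale. Hepatocyte genes such as Alb, the main plasma protein, and Hnf4a, the nuclear receptor that maintains hepatocyte identity, were detected in all 6 libraries, Alb at 308 FPKM or more and Hnf4a at 190.6 FPKM or more.

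Values were compared as log2(FPKM + 1) with limma, and a call needed both 2-fold or more and an adjusted p (Benjamini-Hochberg over all 11336 genes) below 0.05. By this rule 1250 genes changed, 628 higher (5.54%) and 622 lower (5.49%) at day 14. The larger changes were mostly rises, as 167 genes rose and 68 fell by at least 4-fold (1.47% and 0.600%). With no fold limit, 8161 genes (72.0%) passed, of which 2630 were higher and 5531 lower. Over all genes tested, fold changes had a median of -0.19 on the log2 scale. Quantile normalization moved this median to -0.06 and the calls to 719 higher and 481 lower. List medians below are to be read against -0.19, and list counts against 5.54% higher and 5.49% lower. Because of the added 1, the fold changes of weakly expressed genes are understated. A gene below 1 FPKM on 1 day could pass the filter only through the other day, which favours list members that differ.

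**Figure D1:**
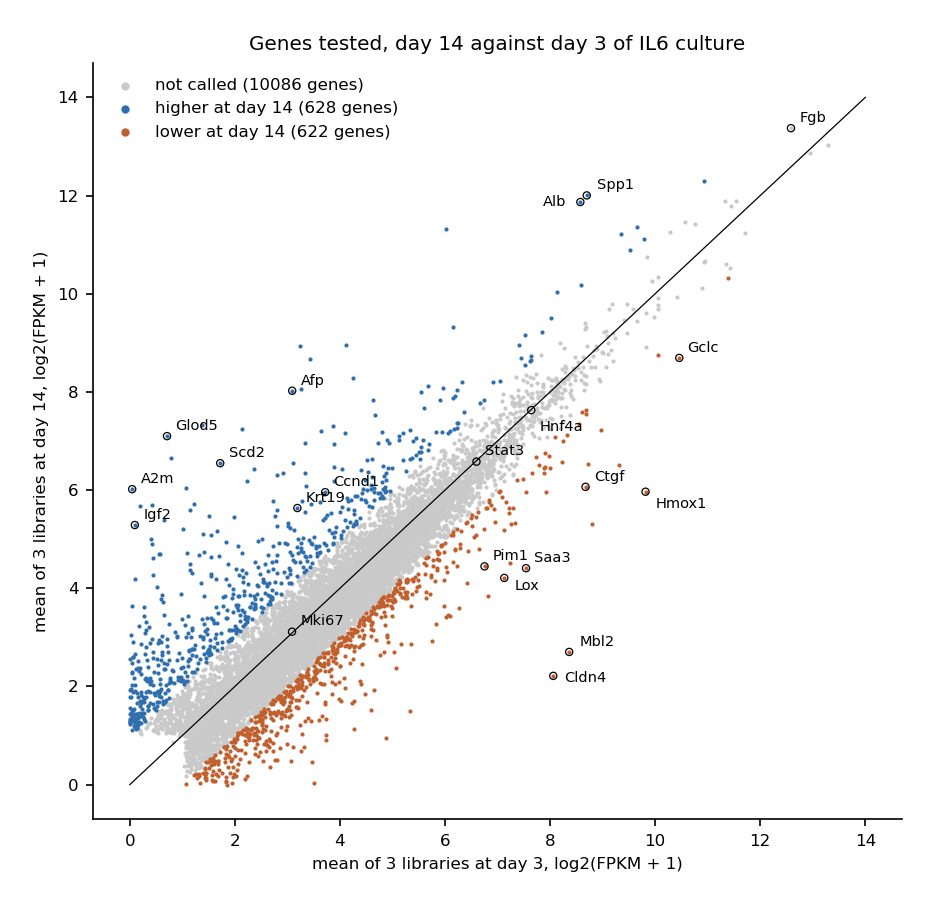
Mean level of each gene tested at day 3 (horizontal axis) and at day 14 (vertical axis), both as log2(FPKM + 1) over 3 libraries, with the line of equal values. The 628 genes higher at day 14 lie above the line, with Glod5, A2m and Igf2 near 0 at day 3, and the 622 lower genes lie below it, with Cldn4 and Mbl2 furthest from it.

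Among the largest rises were genes of the plasma and of the fetal liver. Glod5 rose most, from 0.508, 0.598 and 0.798 FPKM at day 3 to 142, 136 and 131 FPKM at day 14 (log2 fold change 6.39 ± 0.08, SE, limma adjusted p = 5.77e-10). A2m, a protease inhibitor of the plasma, stood at 0.0308, 0.0549 and 0.01097 FPKM in the day 3 libraries and at 63.4, 71.9 and 56.3 FPKM in those of day 14. Gpx3, a secreted peroxidase, went from 2.07, 1.39 and 1.27 to 148, 158 and 173 FPKM, and Msln, mesothelin, from 0.6802, 0.752 and 0.71004 to 110.4, 86.3 and 101 FPKM. Pzp, an inhibitor related to A2m, Cdh17, a cadherin, Gjb1, the main gap junction protein of hepatocytes, and Selenbp1, a selenium-binding protein, also rose, with log2 fold changes of 5.69, 5.26, 4.97 and 4.83. Day 3 and day 14 libraries did not overlap for any of these genes, nor for 25.0% of all genes tested in the direction of a rise.

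The largest falls included a junction gene, plasma proteins and enzymes. Cldn4, a claudin of tight junctions, fell from 252, 253 and 293 FPKM to 3.96, 3.05 and 3.93 FPKM (log2 fold change -5.85 ± 0.10, limma adjusted p = 1.53e-09). Mbl2, mannose-binding lectin, a complement activator made by the liver, fell from 330.3, 319 and 336 to 5.501, 5.81 and 5.23 FPKM (log2 fold change -5.66 ± 0.06). Hmox1, heme oxygenase, fell from 907, 769 and 1026 to 66.7, 57.1 and 60.9 FPKM. Serpina7, the carrier of thyroid hormone in plasma, fell from 409.6, 476 and 449 to 43.3, 36.9 and 35.99 FPKM, Pdk4, a kinase that restrains glucose oxidation, from 111, 114 and 109.8 to 11.8, 12.1 and 16.1 FPKM, and Adh1, alcohol dehydrogenase, from 10.6, 9.88 and 9.68 to 0.267, 0.421 and 0.419 FPKM. Mup3 and Mup7 were also in this group, at means of 28.2 and 10.3 FPKM at day 3 and 0.924 and 0.0237 FPKM at day 14, but major urinary protein genes are near-identical copies and reads may be shared among them. Non-overlap in the direction of a fall held for 51.6% of all genes tested.

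**Figure D2:**
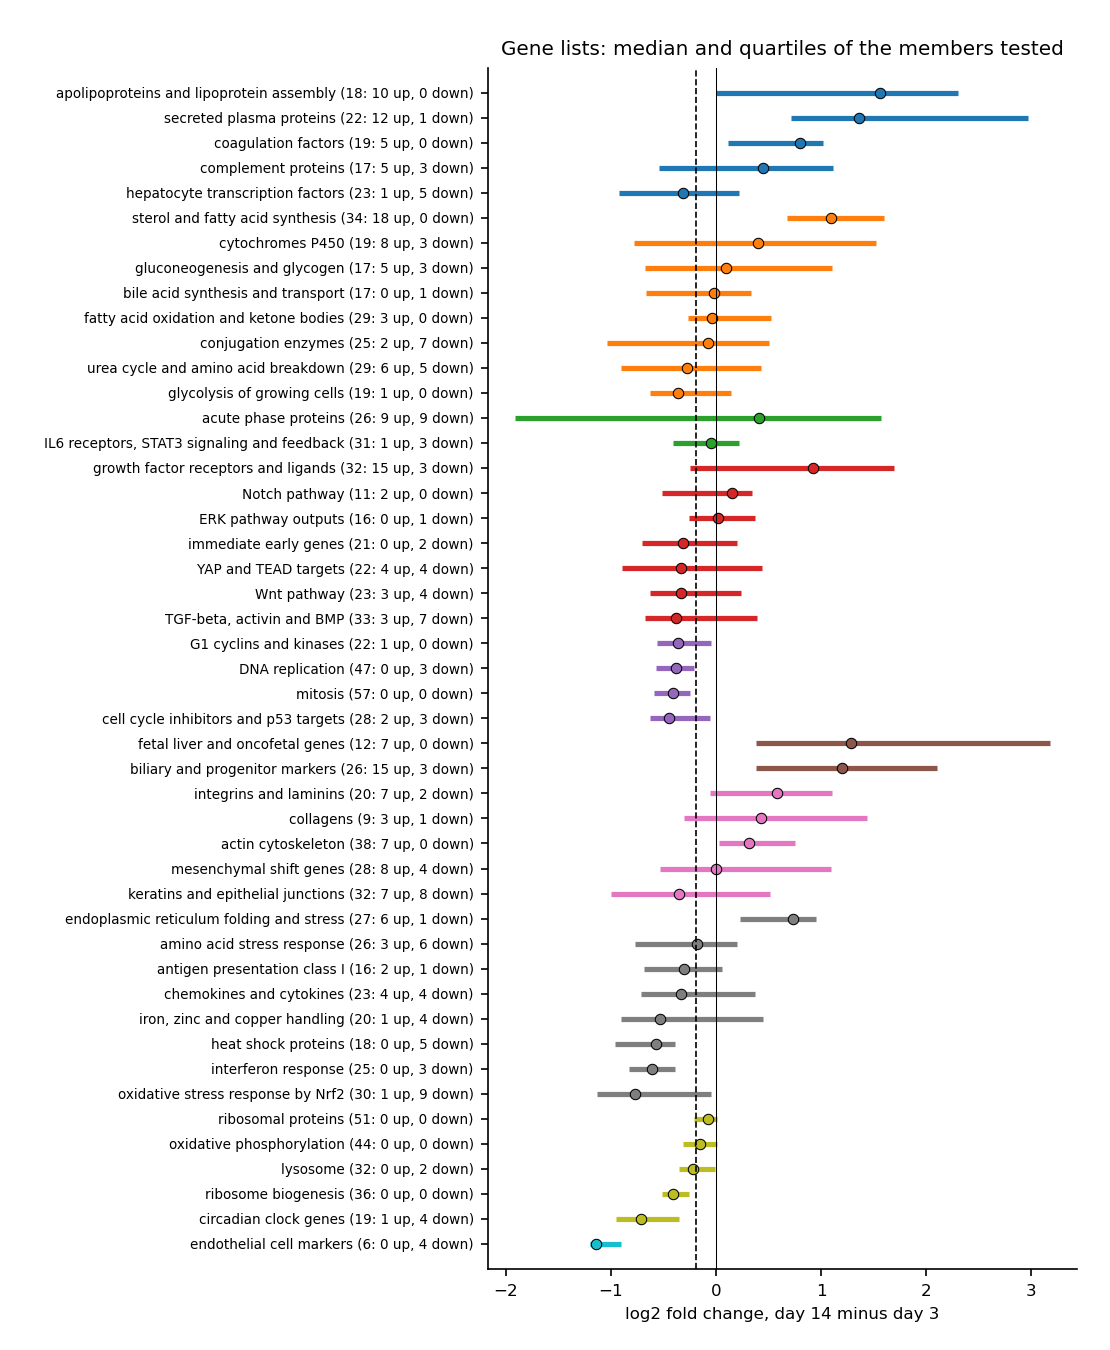
Median (point) and quartiles (bar) of the log2 fold change, day 14 minus day 3, over the tested members of each gene list with at least 5 such members, with the number of members tested, higher and lower beside its name and colours for the role of the list. The dashed line is the median of all genes tested, -0.19, and lists of secreted proteins, sterol synthesis, biliary and fetal genes lie to the right of it, while the Nrf2, interferon and heat shock lists lie to the left.

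Many products that hepatocytes secrete were higher at day 14. Of 22 secreted plasma proteins tested, 12 rose and 1 fell (median log2 fold change 1.36). Alb was 3828, 4141 and 3244 FPKM in the day 14 libraries and 398, 308 and 436 FPKM in those of day 3, about 9.82-fold in the means (log2 fold change 3.30 ± 0.14, limma adjusted p = 1.93e-07), with no overlap. Apoh, a phospholipid-binding plasma protein, rose from 3.15, 3.36 and 3.74 to 147, 166 and 136 FPKM. Serpina1a and Serpina1b, which encode the elastase inhibitor alpha-1-antitrypsin, rose from 10.4, 11.2 and 7.65 to 409, 459.6 and 353 FPKM and from 62.9, 77.4 and 50.6 to 2721, 2993 and 1908 FPKM, with the limit that these copies are so alike that reads may be shared. Hpx, hemopexin, which binds free heme, was the member that fell, from 2627, 2867 and 2559 to 1341, 1301 and 1178 FPKM. Fgb, the beta chain of fibrinogen, was the most abundant member and differed by less than 2-fold, at 6398, 5992 and 6038 FPKM on day 3 and 10168, 11314 and 10332 FPKM on day 14.

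Apolipoproteins moved in the same direction, with 10 of 18 higher and 0 lower (median 1.56), or 11 and 1 with limma voom or a pseudocount of 0.1. Apoa1, the main protein of HDL, rose from 18.4, 20.9 and 14.97 to 326, 345 and 257 FPKM (log2 fold change 4.02 ± 0.14). Apoe, which carries lipoprotein remnants to the liver, rose from 656, 662 and 631 to 2348, 2594 and 2193 FPKM. Of 19 coagulation factors 5 rose and 0 fell (median 0.80; 9 and 1 with limma voom on the recovered reads, 8 and 1 with a pseudocount of 0.1, 8 and 0 after quantile normalization), led by Kng1, kininogen, at 285, 280.1 and 277 FPKM on day 3 and 959.5, 1179 and 994 FPKM on day 14. Of 17 complement proteins 5 rose and 3 fell. C1s1, a protease of the C1 complex, fell from 242, 242 and 234 to 87.97, 86.6 and 88.1 FPKM.

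Transcription factors of hepatocyte identity gave other counts. Of 23 tested, 1 rose and 5 fell (median -0.31; 1 and 3 after quantile normalization). Hnf4a was 207, 199 and 191 FPKM at day 3 and 193, 204 and 193 FPKM at day 14 (log2 fold change -0.01 ± 0.06), and the libraries of both days overlapped. Cebpb, a factor of the acute phase and of regeneration, fell from 163, 129 and 188 to 43.1, 49.5 and 24.9 FPKM (log2 fold change -2.04 ± 0.23), and Cebpa, which restrains hepatocyte growth, fell from 46.1, 44.3 and 52.8 to 23.2, 23.3 and 18.96 FPKM. Gata4 and Foxa1, pioneer factors of the liver bud, fell from means of 14.95 and 20.6 FPKM to 4.33 and 8.84 FPKM, and Nr0b2, a corepressor of nuclear receptors, fell from 1.34 to 0.153 FPKM. Foxa2 was 75.1, 57.2 and 79.3 FPKM at day 3 and 48.6, 51.7 and 52.4 FPKM at day 14, a difference under 2-fold. Several of these calls lay near the 2-fold limit: without library 2 of day 3 the log2 fold change was -0.98 for Nr0b2, without library 2 of day 14 it was -0.99 for Nr0b2, and after quantile normalization it was -0.99 for Cebpa and -0.98 for Foxa1.

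Metabolic genes were split. In the urea cycle and amino acid breakdown list 6 of 29 rose and 5 fell (6 and 10 with limma voom on the recovered reads, 6 and 9 with a pseudocount of 0.1). Cps1, the enzyme that brings ammonia into the urea cycle, rose from 3.22, 2.72 and 2.95 to 39.6, 50.1 and 39.1 FPKM (log2 fold change 3.46 ± 0.10), and Hal, histidine ammonia lyase, rose from 0.551, 0.834 and 0.602 to 5.29, 6.37 and 4.84 FPKM. Gls2, the liver glutaminase, fell from 11.3, 10.1 and 11.9 to 1.37, 1.51 and 1.601 FPKM, and Cbs, the first enzyme from homocysteine to cysteine, from 23.8, 23.8 and 26.8 to 7.22, 7.097 and 5.96 FPKM. Glul, glutamine synthetase, rose from 50.3, 54.02 and 47.7 to 117, 129 and 119.7 FPKM. Fah, the last enzyme of tyrosine breakdown, was 46.3, 43.5 and 39.9 FPKM at day 3 and 37.96, 43.4 and 38.6 FPKM at day 14, with overlap. Arg1, the last enzyme of the urea cycle, failed the filter on low values, at 0.6899, 0.699 and 0.611 FPKM on day 3 and 0.849, 0.888 and 1.68 FPKM on day 14.

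In the gluconeogenesis list 5 of 17 rose and 3 fell (6 and 5 with limma voom or a pseudocount of 0.1). G6pc, glucose-6-phosphatase, rose from 0.0622, 0.137 and 0.148 to 3.95, 4.196 and 4.37 FPKM, while Fbp1, fructose bisphosphatase, fell from 13.9, 16.6 and 13.7 to 3.09, 3.68 and 3.01 FPKM. Of 19 cytochromes P450 tested out of 33 listed, 8 rose and 3 fell. Cyp2d26 rose from 1.64, 1.91 and 1.39 to 25.01, 27.9 and 24.2 FPKM and Cyp2c29 from 0.0308, 0.0172 and 0.00977 to 8.18, 7.84 and 5.88 FPKM, while Cyp2a5 fell from 8.03, 5.78 and 8.896 to 0.808, 0.568 and 0.725 FPKM. Cyp1a2, a defining enzyme of adult hepatocytes, was too low to be tested (0.427, 0.257 and 0.4504 FPKM at day 3 and 1.18, 1.0001 and 0.619 FPKM at day 14). Conjugation enzymes went the other way, with 2 of 25 higher and 7 lower (4 and 9 with limma voom), among them Gstt2, which fell from 11.3, 15.8 and 9.97 to 1.02, 0.578 and 1.07 FPKM. Fatty acid oxidation had 3 higher and 0 lower of 29 (10.3% and 0%), or 4 and 1 with limma voom or a pseudocount of 0.1. Glycolysis had 1 and 0 of 19 (5.26% and 0%). Bile acid synthesis and transport had 0 and 1 of 17 (0% and 5.88%), or 1 and 4 with limma voom or a pseudocount of 0.1. Over all genes tested 5.54% were higher and 5.49% lower.

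Of 34 genes of sterol and fatty acid synthesis 18 rose and 0 fell, and the median log2 fold change was 1.10. With limma voom or a pseudocount of 0.1 the counts were 18 and 1, and after quantile normalization 20 and 1. These enzymes are known targets of the SREBP transcription factors. Scd2, a fatty acid desaturase of fetal and growing tissue, rose from 2.35, 1.68 and 2.85 to 98.2, 94.6 and 85.004 FPKM (log2 fold change 4.84 ± 0.12, limma adjusted p = 1.40e-08). Insig1, the sterol sensor that holds SREBP back, rose from 4.36, 5.79 and 4.71 to 21.3, 23.3 and 20.5 FPKM, and Sqle, squalene epoxidase, from 12.9, 13.01 and 14.01 to 46.98, 47.2 and 40.8 FPKM.

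Most receptors and signaling genes of the IL6 pathway did not pass the 2-fold rule, as was true of all genes tested. Of 31 members tested, 1 rose (3.23%) and 3 fell (9.68%), against 5.54% and 5.49% of all genes tested. The median was -0.04, and 0.03 after quantile normalization. Stat3 was 102, 88.6 and 97.4 FPKM at day 3 and 94.4, 95.996 and 93.5 FPKM at day 14 (log2 fold change -0.02 ± 0.07), with overlap. Il6st was 46.3, 44.6 and 46.6 FPKM at day 3 and 44.1, 43.3 and 45.5 FPKM at day 14 and overlapped too. Il6ra, the receptor itself, was 7.51, 6.5001 and 7.39 FPKM at day 3 and 11.03, 11.2 and 10.3 FPKM at day 14, a log2 fold change of 0.55 ± 0.07. Socs3, the feedback inhibitor, was 102, 90.9 and 103 FPKM at day 3 and 124, 124 and 114 FPKM at day 14, also under 2-fold. Pim1, a kinase induced by STAT factors, fell from 103, 114 and 104 to 19.8, 21.5 and 21.1 FPKM (log2 fold change -2.31 ± 0.06, limma adjusted p = 2.09e-08). Cish, another inhibitor of cytokine receptors, fell from 26.8, 23.5 and 27.6 to 5.18, 5.48 and 5.08 FPKM, and Bcl6, a repressor, from 37.4, 30.4 and 39.2 to 15.2, 15.4 and 14.4 FPKM. Il4ra, a receptor subunit for IL4 and IL13, was the member that rose, from 59.3, 56.7 and 64.6 to 150.2, 141 and 140.3 FPKM. Myc was 175, 126 and 166 FPKM at day 3 and 81.2, 76.97 and 80.1 FPKM at day 14 (log2 fold change -0.95 ± 0.11, and -1.09 without library 2 of day 3, which passes the rule).

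Acute phase proteins, the best known hepatic products of IL6, parted into opposite directions: 9 of 26 tested rose and 9 fell. Saa3, a serum amyloid A, fell from 195, 260.5 and 100.4 to 21.5, 18.4 and 20.8 FPKM (log2 fold change -3.03 ± 0.28, limma adjusted p = 1.89e-05), with a wide spread at day 3. Orm1, an orosomucoid, fell from 681, 676 and 539 to 90.4, 89.1 and 89.99 FPKM, and Hamp, hepcidin, which limits iron uptake, from 14.2, 9.56 and 13.3 to 0.853, 0.474 and 1.69 FPKM. In all, the 9 that fell were Saa1, Saa2, Saa3 and Saa4, Orm1, Orm2 and Orm3, Hamp and Steap4, and since Saa1 and Saa2, like the Orm genes, are near copies, these are fewer than 9 independent genes. On the rising side, Apcs, serum amyloid P, went from 10.5, 9.25 and 7.61 to 125, 129 and 118 FPKM, Crp, C-reactive protein, from 2.44, 3.18 and 1.99 to 31.6, 28.9 and 28.97 FPKM and Serpina3n, a protease inhibitor, from 75.1, 62.7 and 72.4 to 608, 714 and 600.1 FPKM. Hp, haptoglobin, differed by less than 2-fold, at 3266, 3894 and 2933 FPKM on day 3 and 2575, 2464 and 2231 FPKM on day 14.

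**Figure D3:**
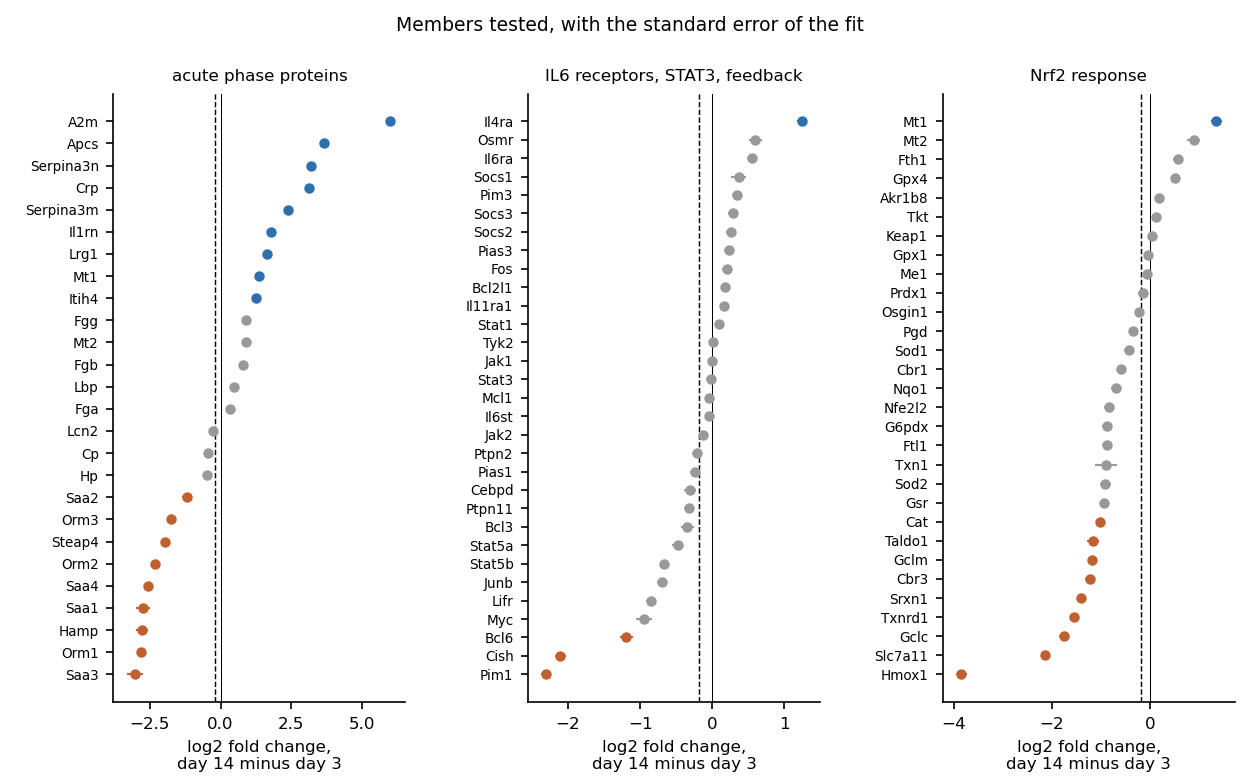
Log2 fold change (day 14 minus day 3) of each tested member of the acute phase list, the IL6 receptor and STAT3 list and the Nrf2 list, with the standard error of the limma fit, blue for genes higher and orange for genes lower at day 14. The dashed line is the median of all genes tested, -0.19. Acute phase proteins run from -3.03 (Saa3) to 5.97 (A2m), while most of the IL6 receptor and STAT3 members lie within 1 of 0.

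Growth factor ligands and receptors rose more often than they fell, 15 and 3 of 32 (median 0.92). The EGF receptor ligands Tgfa, Btc, Ereg, Areg and Hbegf were among them. Tgfa rose from 40.6, 36.8 and 40.1 to 148, 157 and 140.02 FPKM and Btc, betacellulin, from 4.09, 4.73 and 3.86 to 21.2, 26.3 and 19.1 FPKM. Ereg, epiregulin, rose from 0.743, 0.496 and 0.347 to 13.4, 14.4 and 13.1 FPKM and Areg, amphiregulin, from 4.32, 3.87 and 1.99 to 13.3, 8.37 and 10.5 FPKM. Igf2, the fetal insulin-like growth factor, rose from 0.0706, 0.054997 and 0.0815 to 34.7, 37.7 and 41.9 FPKM (log2 fold change 5.19 ± 0.08, limma adjusted p = 1.21e-09), while Igf1, the adult hormone of this pair, fell from 17.7, 18.5 and 17.4 to 2.15, 2.38 and 2.02 FPKM. The receptors for the 2 growth factors of the medium differed by less than 2-fold: Egfr was 139, 130.2 and 151 FPKM at day 3 and 199, 208 and 203 FPKM at day 14, and Met was 20.9, 23.1 and 21.2 FPKM at day 3 and 18.4, 17.1 and 19.1 FPKM at day 14. Of 16 transcript outputs of ERK signaling 0 rose and 1 fell (6.25%, against 5.49% of all genes tested). It was Phlda1, from 91.3, 78.5 and 86.5 to 25.3, 26.7 and 25.8 FPKM.

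In the G1 part of the cell cycle 1 of 22 genes tested rose (4.55%), against 5.54% of all genes tested. Ccnd1, cyclin D1, which carries growth factor signals to the G1 kinases, rose from 12.1, 10.8 and 13.6 FPKM to 69.5, 53.5 and 60.5 FPKM (log2 fold change 2.24 ± 0.11, limma adjusted p = 3.95e-07), and it was the only called member of 22 G1 cyclins, kinases and E2F genes, whose median was -0.36 (limma voom and a pseudocount of 0.1 each called 1 higher and 2 lower). Its partner Cdk4 was 99.3, 102 and 94.02 FPKM at day 3 and 131, 127 and 125 FPKM at day 14, and Ccnd2 was 14.8, 13.6 and 15.8 FPKM at day 3 and 30.02, 26.01 and 28.3 FPKM at day 14 (log2 fold change 0.89 ± 0.08, and 1.03 after quantile normalization, where 2 members of the list were higher). Of 47 DNA replication genes 0 rose and 3 fell in limma (6.38%, against 5.49% of all genes tested, or 0 and 6 with limma voom), with a median of -0.38. At an unadjusted p under 0.05, 1 was higher and 36 were lower, where 24.2% of all genes tested were higher and 50.4% lower. Of 57 mitosis genes 0 rose and 0 fell by the 2-fold rule in limma, with a median of -0.41, while 43 were lower and 0 higher at an unadjusted p under 0.05, and limma voom on the recovered reads called 6 lower. After quantile normalization the medians of the replication and mitosis lists were -0.23 and -0.29. Mki67, which marks cycling cells, was 7.81, 5.42 and 9.28 FPKM at day 3 and 8.21, 6.98 and 7.801 FPKM at day 14 (log2 fold change 0.05 ± 0.15), and the fold turned to -0.14 without library 2 of day 3. Foxm1, the factor of mitotic genes, was 4.01, 2.15 and 4.34 FPKM at day 3 and 4.44, 3.66 and 3.67 FPKM at day 14. The level of Mki67 in the same table was 0.00526 FPKM in hepatocytes and 0.917 to 21.6 FPKM in 4 groups of passaged IL6-iHPCs.

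Among cell cycle inhibitors, those of the Ink4 locus rose. Cdkn2b, which blocks Cdk4 and Cdk6, rose from 4.07, 3.197 and 3.89 to 71.7, 76.6 and 66.2 FPKM (log2 fold change 3.94 ± 0.09), and Cdkn2a, whose symbol covers the overlapping transcripts of p16 and p19Arf, from 0.0395, 0.0994 and 0 to 6.67, 6.104 and 6.62 FPKM. Cdkn1b fell from 36.5, 40.4 and 37.01 to 18.5, 17.03 and 16.2 FPKM, and Gadd45b and Gadd45a, which respond to stress and DNA damage, fell from means of 84.9 and 148 FPKM to 16.2 and 45.6 FPKM. Cdkn1a, p21, was 237, 231 and 228 FPKM at day 3 and 148, 152 and 155 FPKM at day 14. After quantile normalization Cdkn1b was under 2-fold (log2 fold change -0.96). Over the whole list of 28 inhibitors and p53 targets, 2 rose and 3 fell.

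Biliary and progenitor markers rose broadly: 15 of 26 tested were higher and 3 were lower, with a median of 1.20 (1.29 with Anxa13, which had no reads at day 3, set at a bound of 3 reads over the group). Of 33 listed, some, such as Anxa13 and Krt7, passed the filter only through day 14, and without the filter the median was 0.75. Spp1, osteopontin, rose from 418, 502 and 323 to 3936, 4371 and 4001 FPKM (log2 fold change 3.33 ± 0.15, limma adjusted p = 2.18e-07). Sox9, a factor of bile duct cells, rose from 19.99, 20.1 and 21.2 to 62.6, 59.01 and 60.1 FPKM. The duct keratins Krt19 and Krt7 rose from 8.06, 6.77 and 9.55 to 54.1, 46.6 and 45.3 FPKM and from 0.155, 0.09299 and 0.432 to 7.57, 6.48 and 8.48 FPKM. Tspan8, a membrane tetraspanin, rose from 0.272, 0.319 and 0.7102 to 14.8, 14.1 and 16.96 FPKM and Cd44, the hyaluronan receptor, from 30.2, 27.3 and 29.3 to 129, 126 and 129.7 FPKM. The members that fell were Cldn4, Sox4 (372, 323 and 426 FPKM at day 3 and 166, 164 and 158 FPKM at day 14) and Aqp1 (1.502, 2.11 and 1.63 FPKM at day 3 and 0.0678, 0.0882 and 0.0653 FPKM at day 14), so the list was not uniform.

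Of 24 genes of the fetal liver listed, 12 passed the filter, and of these 7 rose and 0 fell (median 1.29). Some, such as Gpc3, passed it only through their day 14 values, which favours a rise. Without the filter 7 rose and 0 fell as well, and the median was 0.37. Afp, the fetal counterpart of albumin, rose from 7.34, 6.95 and 8.28 to 258, 268 and 251 FPKM (log2 fold change 4.93 ± 0.07, limma adjusted p = 1.16e-09). Gpc3, a heparan sulfate proteoglycan, rose from 0.1703, 0.136 and 0.118 to 45.5, 56.2 and 47.8 FPKM, and Peg3, an imprinted gene, from 13.9, 11.1 and 16.5 to 91.3, 72.6 and 101 FPKM. Of the 4 transcription factors that the study names for this process, Elf3 was 2.21, 2.35 and 2.35 FPKM at day 3 and 2.68, 2.303 and 2.15 FPKM at day 14 and overlapped. Barx2 and Mxd3 failed the filter, at 0.177, 0.189 and 0.149 and 0.676, 0.658 and 0.926 FPKM on day 3 and 0.575, 0.533 and 0.624 and 0.994, 0.721 and 0.791 FPKM on day 14.

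**Figure D4:**
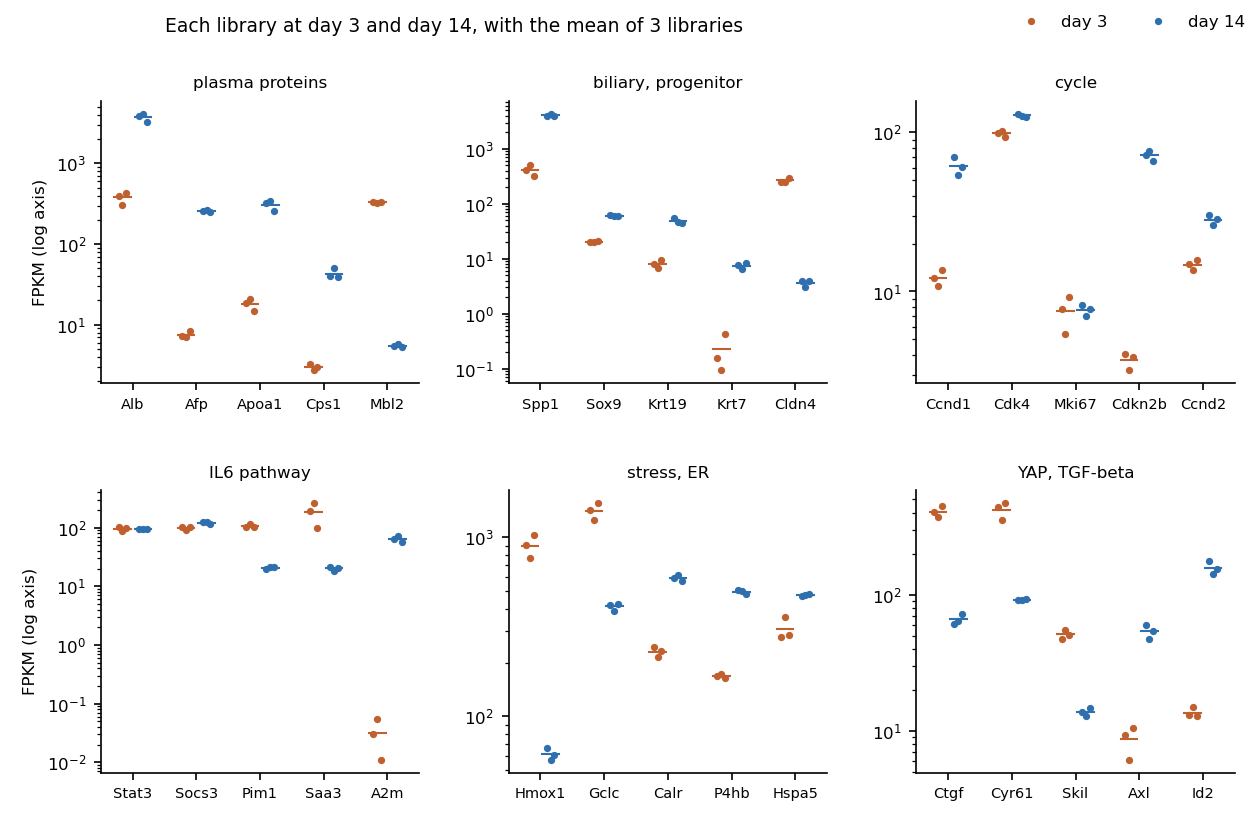
FPKM of 30 genes in each of the 6 libraries (points) with the mean of 3 libraries (bars) on a log axis, orange for day 3 and blue for day 14, in 6 panels by role. For Alb, Spp1, Ccnd1 and A2m all day 14 libraries lie above all day 3 libraries, for Mbl2, Cldn4, Hmox1 and Ctgf all lie below, and for Stat3 and Mki67 the days overlap.

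Genes of cell shape and adhesion changed in a mixed pattern. Among 32 keratins and junction genes 7 rose and 8 fell. Cdh1, E-cadherin, rose from 22.9, 20.4 and 22.5 to 104, 90.4 and 97.3 FPKM, and Gjb1 from 1.09, 1.18 and 1.03 to 64.6, 72.4 and 58.2 FPKM, while Dsc2, a desmosomal cadherin, fell from 32.1, 33.997 and 29.2 to 5.25, 5.19 and 5.998 FPKM. Krt18, the main keratin of hepatocytes, was 2672, 2588 and 2536 FPKM at day 3 and 1534, 1593 and 1516 FPKM at day 14, a difference under 2-fold that passed the rule after quantile normalization (log2 fold change -1.22). Of 28 genes of the mesenchymal shift 8 rose and 4 fell (6 and 2 after quantile normalization). Fn1, fibronectin, one of the most abundant transcripts, rose from 2102, 1707 and 2006 to 5049, 5065 and 5053 FPKM (log2 fold change 1.39, or 0.84 once quantile normalized), and Timp2, an inhibitor of matrix proteases, from 1.68, 1.82 and 2.07 to 46.1, 40.9 and 42.7 FPKM, while Lox, the enzyme that crosslinks collagen, fell from 139, 119 and 159 to 18.3, 14.9 and 19.4 FPKM. Of 38 actin and tubulin genes 7 rose and 0 fell, with Tmsb4x, an actin-binding peptide, at 20.7, 32.5 and 20.3 FPKM on day 3 and 184, 178 and 186 FPKM on day 14. Of 20 integrins and laminins 7 rose and 2 fell, and Lamb2, a laminin chain, rose from 2.03, 1.84 and 1.93 to 24.4, 24.1 and 23.1 FPKM.

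Several well known targets of YAP and TGF-beta fell. Ctgf, a secreted matricellular protein and a standard reporter of YAP, fell from 403, 370.1 and 449.9 to 61.4, 64.4 and 72.3 FPKM (log2 fold change -2.61 ± 0.09, limma adjusted p = 6.15e-08). Cyr61, its relative, fell from 438, 353 and 469 to 91.5, 90.95 and 92.9 FPKM, and Amotl2, a regulator of YAP, from 192, 156 and 205 to 61.1, 60.6 and 62.2 FPKM. The list as a whole was divided, 4 of 22 higher and 4 lower, and Axl, a receptor kinase listed as a YAP target, rose from 9.35, 6.14 and 10.6 to 60.2, 47.6 and 54.1 FPKM. Of 33 genes of TGF-beta, activin and BMP signaling 3 rose and 7 fell. Skil, a feedback repressor, fell from 47.5, 55.5 and 50.9 to 13.7, 12.8 and 14.7 FPKM, while Id2, an inhibitor of helix-loop-helix factors, rose from 13.2, 14.99 and 12.8 to 177, 142 and 154 FPKM. In the Wnt list 3 of 23 rose and 4 fell, with Wnt4 rising from 0.0551, 0.0463 and 0.0437 to 5.06, 5.16 and 5.02 FPKM and the receptor Fzd4 falling from 5.63, 5.16 and 6.08 to 0.798, 0.778 and 0.822 FPKM.

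TEAD factors, the DNA-binding partners of YAP, are known to bind GGAATG. Of 17 members of the YAP list with a promoter in RefSeq (GRCm38.p6, the assembly of mm10), 10 held these letters on either strand within 250 bases before the start of the gene, against 12.6% of 32851 promoters and 12.7% of 8841 tested genes. Among the 10 were Yap1, Wwtr1 and Tead3, factors of the pathway itself, while Ctgf was not among them. The members with the letters that are not shown had log2 fold changes from -0.97 (Ajuba) to 0.72 (Ptpn14). The windows of Cyr61 and Amotl2, which fell, and of Axl, which rose, are shown 5′ to 3′ on the strand of the gene, with the motif in capitals (CATTCC where it lies on the other strand).
Cyr61 (chr3:145650053-145650118, minus strand): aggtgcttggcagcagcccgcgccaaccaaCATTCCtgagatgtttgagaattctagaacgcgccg
Amotl2 (chr9:102717709-102717774, plus strand): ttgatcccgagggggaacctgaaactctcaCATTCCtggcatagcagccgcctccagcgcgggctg
Axl (chr7:25788931-25788983, minus strand): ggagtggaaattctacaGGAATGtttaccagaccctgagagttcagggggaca
The same letters stood before genes that moved in opposite directions. In all, 11 motifs were searched over 8 lists, and this one and the element of the chaperones further on were picked after the matches were seen.

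Genes of several stress responses fell. Of 30 members of the oxidative stress response driven by Nrf2, 9 fell and 1 rose (median -0.77). Hmox1 was 14.6-fold higher at day 3 than at day 14 in the means (log2 fold change -3.84 ± 0.11, limma adjusted p = 2.10e-08). Gclc, the rate-limiting enzyme of glutathione synthesis, fell from 1422, 1244 and 1552 to 421, 389 and 427 FPKM, Slc7a11, the cystine carrier, from 27.8, 29.1 and 26.3 to 5.85, 4.73 and 6.04 FPKM, and Txnrd1, thioredoxin reductase, from 228, 238 and 241 to 80.4, 78.7 and 82.2 FPKM. Nfe2l2, which encodes Nrf2, was 363, 281 and 349 FPKM at day 3 and 176, 185 and 189 FPKM at day 14, under 2-fold. Mt1, a metallothionein, was the member that rose, from 786, 708 and 721 to 1729, 2209.7 and 1737 FPKM. Of 18 heat shock genes 5 fell and 0 rose (median -0.57; 3 fell after quantile normalization), and of 25 interferon response genes 3 fell and 0 rose (median -0.61), led by Bst2, an inhibitor of virus release, from 84.3, 132 and 82.05 to 27.2, 27.5 and 25.6 FPKM. With limma voom or a pseudocount of 0.1, 8 interferon response genes fell.

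Some chaperones of the endoplasmic reticulum rose. Of 27 members 6 rose and 1 fell, and the median was 0.74, while 23 of the 27 had a fold change above 0. P4hb, protein disulfide isomerase, rose from 169, 172 and 165 to 510.1, 500.2 and 486 FPKM (log2 fold change 1.56 ± 0.06, limma adjusted p = 9.00e-08). Calr, calreticulin, the lectin chaperone of glycoproteins, rose from 245, 215 and 231 to 593, 619 and 573 FPKM, Hsp90b1 from 196, 197 and 198 to 379, 404 and 413 FPKM and Pdia3 from 175, 196 and 175 to 359.5, 372 and 381 FPKM. Hspa5, the central chaperone BiP, was 277, 357 and 285 FPKM at day 3 and 473, 478 and 482 FPKM at day 14 (log2 fold change 0.65 ± 0.10), under 2-fold. Xbp1, a factor that drives these genes, was 158, 187 and 154 FPKM at day 3 and 262, 261 and 268 FPKM at day 14. The member that fell was Ppp1r15a, a phosphatase subunit that ends the translational block of stress, from 61.1, 56.8 and 61.03 to 28.7, 27.9 and 29.1 FPKM. Hsp90b1, Pdia3 and Ppp1r15a lay at the 2-fold limit: leaving out library 2 or 3 of day 14 gave Hsp90b1 a log2 fold change of 0.9997 or 0.98, leaving out library 1 of day 3 gave Pdia3 0.9988, and quantile normalization gave Ppp1r15a -0.93. Without library 2 of day 3, Pdia6 and Creld2 passed the rule, at log2 fold changes of 1.03 and 1.02.

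Promoters of many such chaperones are known to carry an element, CCAAT, 9 bases of any kind and CCACG, which is bound by NF-Y and ATF6. It stood within 250 bases before the start in 9 of the 23 members with a promoter in RefSeq, both strands counted. This compares with 37 of 32851 promoters (0.113%) and 18 of 8841 tested genes (0.204%). P4hb and Pdia3, which rose, were not among the 9. The windows of 5 members are shown 5′ to 3′ on the strand of the gene, with the fixed letters of the element in capitals, which read CGTGG and ATTGG where the element lies on the other strand.
Calr (chr8:84847045-84847123, minus strand): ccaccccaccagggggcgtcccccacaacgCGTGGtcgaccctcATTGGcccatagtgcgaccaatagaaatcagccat
Hsp90b1 (chr10:86705503-86705581, minus strand): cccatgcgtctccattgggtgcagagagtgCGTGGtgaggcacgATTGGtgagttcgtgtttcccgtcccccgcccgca
Hspa5 (chr2:34771995-34772073, plus strand): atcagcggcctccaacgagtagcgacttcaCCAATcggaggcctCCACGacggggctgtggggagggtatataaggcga
Pdia6 (chr12:17266461-17266539, plus strand): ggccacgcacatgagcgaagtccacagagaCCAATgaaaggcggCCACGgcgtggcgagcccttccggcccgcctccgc
Creld2 (chr15:88819490-88819568, plus strand): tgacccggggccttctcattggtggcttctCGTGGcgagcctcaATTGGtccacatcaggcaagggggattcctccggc
Of these, Calr and Hsp90b1 passed the test, and Pdia6, Creld2 and Hspa5 had log2 fold changes of 0.95, 0.92 and 0.65. Canx, Dnajc3, Syvn1 and Derl3, not shown, held the element too, at log2 fold changes of 0.31, 0.64, 0.82 and 0.74. A match is a description of letters, not of binding.

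Defence and nutrient genes gave smaller and mixed counts. Of 23 chemokines, cytokines and their targets 4 rose and 4 fell. Vcam1, an adhesion molecule for leukocytes, rose from 0.538, 0.5903 and 0.438 to 6.92, 7.07 and 7.52 FPKM, and Ccl2, the chemokine that attracts monocytes, fell from 121, 213 and 110.2 to 50.6, 47.4 and 47.5 FPKM. Of 16 class I antigen presentation genes 2 rose, both of them the chaperones Calr and Pdia3 named above, and 1 fell, the immunoproteasome subunit Psmb8, from 18.3, 26.5 and 18.2 to 9.09, 10.4 and 8.93 FPKM (log2 fold change -1.05, and -0.88 without library 2 of day 3). Of 26 genes of the amino acid stress response 3 rose and 6 fell, with Chac1, which degrades glutathione, at 4.78, 4.17 and 3.61 FPKM on day 3 and 12.8, 11.5 and 11.1 FPKM on day 14. In the list of iron, zinc and copper handling 1 of 20 rose and 4 fell, among them Hfe2, the BMP co-receptor that induces hepcidin, from 4.81, 5.003 and 4.61 to 0.3303, 0.321 and 0.539 FPKM. Of 21 immediate early genes 0 rose and 2 fell, Fosb from 3.78, 3.41 and 3.73 to 1.02, 0.892 and 1.17 FPKM and Jun from 98.1, 85.2 and 103 to 42.7, 44.1 and 41.6 FPKM, and of 9 collagens 3 rose and 1 fell, with Col18a1, a basement membrane collagen, at 28.3, 28.2 and 28.2 FPKM on day 3 and 81.2, 83.2 and 78.5 FPKM on day 14. The 2 members of the Notch list that rose out of 11 were Sox9 and Spp1, which are also in the biliary list. Of 32 lysosome genes 2 fell, Cd68 and Ctsz (6.25%, against 5.49% of all genes tested). Ctsz went from 281, 271 and 268 to 128, 143 and 132 FPKM (log2 fold change -1.02, and -0.99 without library 1 of day 14).

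Among genes of the general growth machinery, 0 of 51 ribosomal proteins, 0 of 44 genes of oxidative phosphorylation and 0 of 36 genes of ribosome biogenesis passed the 2-fold rule in limma, and 0 did so with limma voom on the recovered reads. Their medians were -0.07, -0.15 and -0.41. At an unadjusted p under 0.05, 2 ribosomal proteins were higher and 6 lower, 1 gene of oxidative phosphorylation was higher and 16 lower, and 0 genes of ribosome biogenesis were higher and 32 lower, against 24.2% higher and 50.4% lower over all genes tested. Of 19 clock genes 1 rose and 4 fell, or 8 with limma voom or a pseudocount of 0.1 (median -0.72), with Nr1d2, a repressor of the clock, falling from 22.4, 26.7 and 23.02 to 9.92, 9.71 and 10.99 FPKM.

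Most markers of other liver cells were low on both days. Of 19 Kupffer cell and macrophage markers, 17 stayed below the filter, with Clec4f at 0 in all 6 libraries and Adgre1 and Ptprc at no more than 0.0838 FPKM. The summed level of this list was 80.7 to 86.6 FPKM at day 14 and 68.6 to 80.7 FPKM at day 3, nearly all of it from Cd14 and Cd68. Cd68, a lysosomal protein, fell from 26.5, 20.7 and 25.4 to 2.76, 2.54 and 3.18 FPKM. Cd14, a receptor subunit for bacterial lipopolysaccharide, was 52.5, 57.1 and 41.1 FPKM at day 3 and 78.2, 75.7 and 80.0 FPKM at day 14, without overlap and under 2-fold (log2 fold change 0.64 ± 0.11). Csf1r, the receptor for macrophage growth factor, was below the filter, at 0.03699, 0.0272 and 0.0484 FPKM on day 3 and 0.818, 0.725 and 0.864 FPKM on day 14.
Of 16 endothelial markers 6 passed the filter and 4 of these fell. Some, such as Cdh5, passed it only through their day 3 values, which favours a fall. The list median was -1.14, and -0.62 without the filter. The sum of all 16 was 18.2 to 21.2 FPKM at day 3 and 4.09 to 5.62 FPKM at day 14. Cdh5, VE-cadherin, fell from 2.78, 2.74 and 2.203 to 0.1399, 0.07002 and 0.153 FPKM. The part of remaining endothelial cells in other falls was not tested. In bulk samples fewer cells of a type and less RNA per cell cannot be told apart.
Of 17 stellate cell and fibroblast markers 15 stayed below the filter, among them Col1a1 and Des, while Dcn, decorin, rose from 0.778, 0.327 and 0.361 to 25.3, 24.3 and 24.9 FPKM and Ecm1 from 7.37, 5.41 and 7.39 to 30.5, 28.5 and 28.97 FPKM. None of 13 lymphocyte or 8 red blood cell markers passed the filter. Of 4 Y-linked genes 0 rose and 1 fell, Uty, from 12.4, 13.96 and 13.6 to 5.85, 6.01 and 6.37 FPKM (log2 fold change -1.02, and -0.98 without library 2 of day 3). Whether both days came from the same mice is not given in the sources used here.

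The same genes were read in freshly isolated hepatocytes and in 4 groups of passaged IL6-iHPCs (mouse-1 at P10, mouse-2 at P10, clone-1 at P20 and mouse-1 at P35, 3 libraries each). Their levels are given side by side with those of days 3 and 14, without a test, for genes picked after the levels were seen. The groups also differed in reads on Y-linked genes. Day 14 libraries held 9185 to 10803 such reads and day 3 libraries 13066 to 18444. All libraries of mouse-1 and mouse-2 at P10 held 0, and those of mouse-1 at P35 held 0 to 2. Those of clone-1 held 6575 to 9095 and those of hepatocytes 994 to 1550. Donors may thus differ as well as passage, and their part in these levels was not tested. Alb was 50009.5 ± 3332 FPKM in hepatocytes and 6835, 8098, 3925 and 1491 FPKM in the 4 passaged groups in that order (means, n = 3 each), against 381 ± 65.5 FPKM at day 3 and 3738 ± 455 FPKM at day 14. Ccnd1 was 2.23 FPKM in hepatocytes and 69.2, 90.6, 260.3 and 283 FPKM in the passaged groups, all above the day 14 mean of 61.2 FPKM. Krt19 was 0.0273 FPKM in hepatocytes and 7.65, 61.02, 735 and 510.2 FPKM in the passaged groups, and Spp1 was 2.56 FPKM in hepatocytes and 8034, 10348, 4003 and 2215 FPKM in the passaged groups.

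The means of some genes were higher at day 14 than in any of these groups. Afp was 0.208 FPKM in hepatocytes and 0.892, 1.47, 17.2 and 9.41 FPKM in the passaged groups, against 259 ± 8.45 FPKM at day 14. Gpc3 was 0 FPKM in hepatocytes and 0.00596, 0.0132, 0.8503 and 0.01798 FPKM in the passaged groups, against 49.8 FPKM. A2m was 0.0213 FPKM in hepatocytes and 0.06501, 0.0809, 0.0243 and 0.00198 FPKM in the passaged groups, against 63.9 ± 7.801 FPKM. Cdkn2b was 0.126 FPKM in hepatocytes and 14.2, 10.9, 0.542 and 17.7 FPKM in the passaged groups, against 71.5 FPKM.
Day 3 had such genes as well. Cldn4 was 0.00475 FPKM in hepatocytes and 0.0431, 0, 1.22 and 0.0188 FPKM in the passaged groups, against 266 ± 23.6 FPKM at day 3. Hmox1 was 5.37 FPKM in hepatocytes and 186, 71.3, 24.6 and 54.5 FPKM in the passaged groups, against 901 FPKM at day 3.
Mbl2 and Cps1 took other courses. Mbl2 was 393 FPKM in hepatocytes, near the 328 FPKM of day 3, and 0.256, 0.282, 0.112 and 0.0569 FPKM in the passaged groups. Cps1 was 701 FPKM in hepatocytes, 2.97 FPKM at day 3, 42.97 FPKM at day 14 and 0.757, 1.34, 0.972 and 0.0949 FPKM in the passaged groups.

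**Figure D5:**
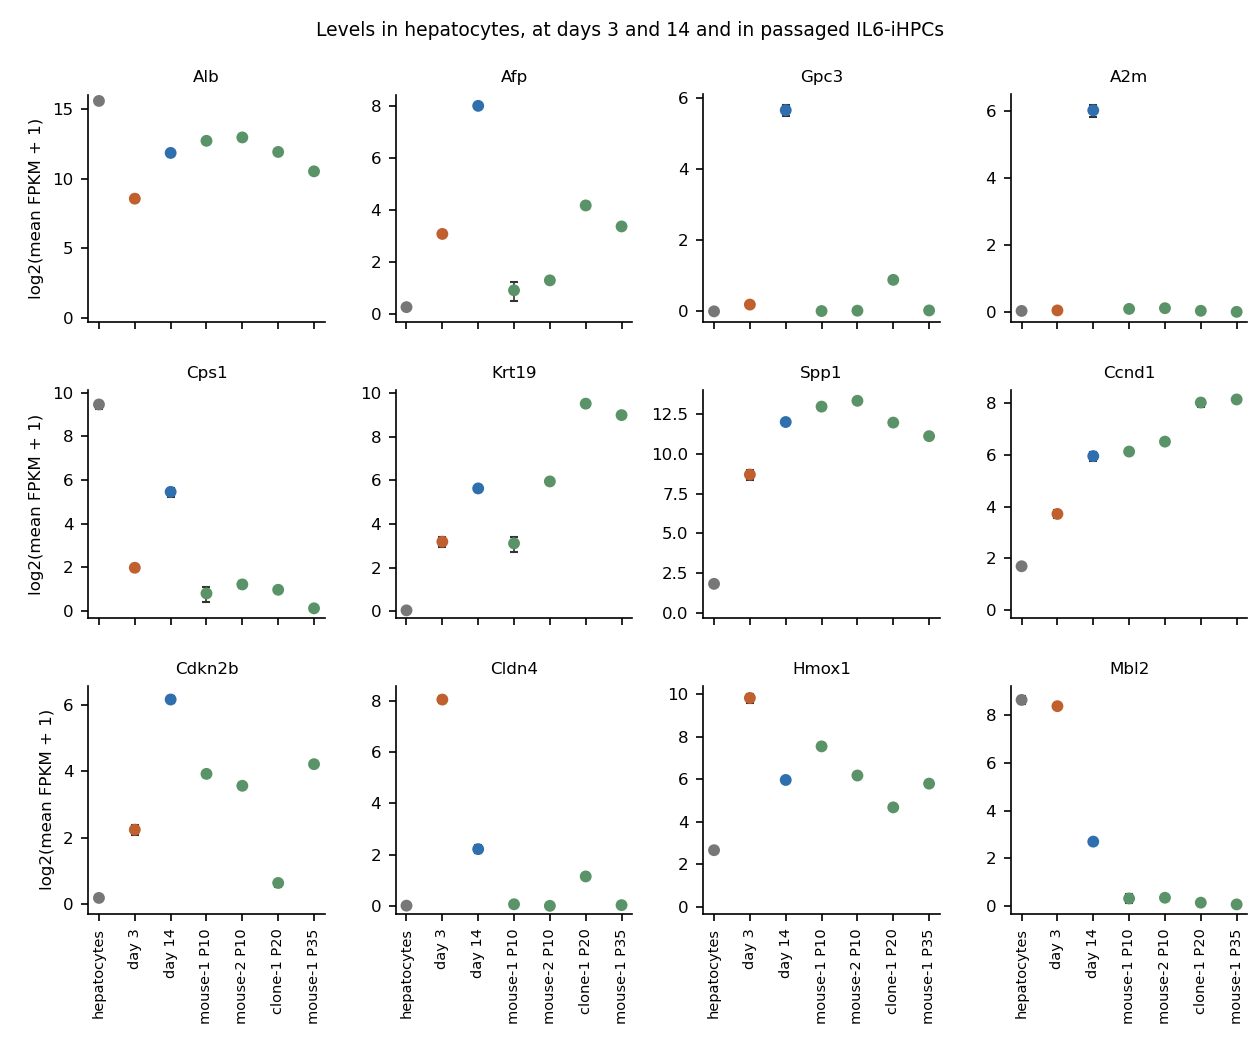
Level of 12 genes as log2 of the mean FPKM + 1 in hepatocytes (grey), day 3 (orange), day 14 (blue) and 4 groups of passaged IL6-iHPCs (green), with the range of the mean ± 1 SD of 3 libraries. Afp, Gpc3, A2m and Cdkn2b are highest at day 14, Cldn4 and Hmox1 at day 3, and Ccnd1 is highest in the passaged groups.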

How the data were processed

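Messenger RNA of 33 cell samples was sequenced as read pairs, and the authors deposited 1 table of FPKM values per gene. The submitters' processing notes name TopHat 1.4.1, Cufflinks 1.3.0 and mm10. The deposited FPKM values were all whole multiples of what 1 read is worth in their gene and library (100% of 482918 values above 0, within 0.02 reads), which gave the reads per gene and library.

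The 3 libraries of day 14 were compared with the 3 of day 3 on log2(FPKM + 1) over 11336 genes, those that reached 1 FPKM in 3 or more of the 6 libraries, by the two-sided test of limma 3.58.1 (R 4.3.3, mean-variance trend) and Benjamini-Hochberg adjustment. On simulated data, with normal noise at the spread between these libraries, the fit recovered 99 of 100 genes changed by 1.5 on the log2 scale. Changes were put only into genes with a clear level at day 3, so weakly expressed genes were not covered. There were 0 wrong calls, which the 2-fold limit made nearly certain at this spread. Other settings were quantile normalization, limma voom on the recovered reads, a block for the replicate number, a fit of all 11 groups, a pseudocount of 0.1, the filter raised to 5 FPKM or dropped, the fold limit raised to 4 or dropped, and each library left out in turn.

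The members and gene lists were chosen with earlier results of these data known. Genes were named by rule: the 2 largest rises and falls and the most abundant member of each list, the 15 largest rises and falls of all genes, genes that the study names, and members of 4 lists. Outside the rule, Adgre1, Amotl2, Areg, Btc, Cdh1, Cdkn1a, Cdkn1b, Clec4f, Col1a1, Creld2, Crp, Csf1r, Des, Egfr, Gclc, Hbegf, Hp, Hsp90b1, Hspa5, Insig1, Met, Nfe2l2, Orm2, Orm3, Pdia6, Peg3, Ptprc, Saa1, Saa2, Saa4, Serpina3n, Sqle, Steap4, Tgfa, Txnrd1 and Xbp1 were named after their values were seen. Some genes that the rule takes up are not reported here.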

Additional observations from a re-analysis of the deposited data

How the results depend on the processing

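The replicates are described as technical repeats and there are 3 per day, so no limit of the p-values speaks for other mice or cultures, and FPKM cannot show a change in total RNA. The number of changed genes was 1250, and 1241 to 1291 when each library was left out in turn, with 619 to 639 higher and 613 to 657 lower, and no call turned its direction. Limma voom on the recovered reads called 1939 genes (845 higher and 1094 lower), and a pseudocount of 0.1 gave 1855 (818 higher and 1037 lower). With no fold limit 8161 genes passed (2630 higher and 5531 lower), and with a 4-fold limit 235 did (167 higher and 68 lower). Quantile normalization gave 719 genes higher and 481 lower, so that 59.9% of changed genes were higher instead of 50.2%. At 5 FPKM no member of the study transcription factor or endothelial lists was left to give a median. No filter gave 1256 genes of 17934 and a filter at 5 FPKM 901 of 8786. Fitting all 11 groups gave the same 1250 genes, as did a replicate block. Both fits keep each fold change as it was, and 8289 and 8015 genes passed on adjusted p alone. The 2-fold limit thus made the same count nearly certain, and it is no check of the calls. Deviations of libraries with the same number were not correlated (r of -0.04, 0.04 and 0.09), so the numbers were not taken as pairs. Without the filter the list medians of gluconeogenesis (-0.13), the Notch pathway (-0.011) and Kupffer cell markers (0.051) changed sign, each from a median further from 0 than its spread between libraries. The fold change of each gene is the same with and without the filter. These medians therefore moved only through the members that the filter had left out. In all, the medians of 11 of 51 lists changed sign under at least 1 setting, and except for Kupffer cell markers their medians in the report were at most 0.154 in size, among them ribosomal proteins (0.071 without library 2 of day 3), conjugation enzymes (0.072 after quantile normalization), bile acid synthesis and mesenchymal shift genes (0.0025 and 0.017 with no filter). Of 714 list counts under other settings, 55 moved by over 1.5 times. Genes near 0 in the report also changed sign without being called: after quantile normalization Il6st was 0.024 and Stat3 was 0.025, and over the libraries left out Elf3 ranged from -0.035 to 0.078, Foxm1 from -0.075 to 0.31, Hnf4a from -0.043 to 0.016, Mki67 from -0.14 to 0.20 and Stat3 from -0.073 to 0.026.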
